A study of Mus musculus with 16 samples.

Results

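R-spondins, their LGR receptors and the ubiquitin ligases ZNRF3 and RNF43 form one module of WNT signalling, described here from RNA levels in mouse adrenal glands. The 9 genes Rspo1, Rspo2, Rspo3, Rspo4, Lgr4, Lgr5, Lgr6, Znrf3 and Rnf43 were taken by name out of 54838 genes counted, through their Ensembl identifiers in the GENCODE M21 annotation. The 16 libraries came from 16 mice, each 4 weeks old and of mixed genetic background, with 4 females and 4 males labelled control and 4 of each sex labelled Rspo1 GOF (gain of function). The labels say no more of the genotype than that. How the gain of function was made, what drives it, in which cells, and which alleles the controls carry are not given in the sources used here. Levels are counts per 1000000 counts (CPM) after scaling of library totals, which ran from 31275146 to 43003968 counts. Levels of different genes are compared only as FPKM, which also divides by transcript length.

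R-spondins are secreted proteins that bind LGR receptors on one side and ZNRF3 or RNF43 on the other. ZNRF3 and RNF43 are membrane ligases that mark Frizzled receptors for removal from the cell surface, and an R-spondin bound to them clears the ligase itself, which leaves more Frizzled receptor to answer WNT ligands. In the adrenal gland, R-spondins from the capsule around the organ are known to sustain WNT signalling in the outer cortex, the zona glomerulosa. Znrf3, Rnf43, Lgr5 and Axin2 are known in other tissues as targets that WNT signalling itself can raise.

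RefSeq promoter windows (GRCm38.p6) were held for 5 of the 9 genes, Rspo1, Rspo4, Lgr4, Lgr6 and Rnf43, the last with 2 start sites. The 250 bases before the start are printed for Rspo1, the gene the genotype raised, and for Lgr4. Lgr4 was the only member whose change from control to GOF differed between the sexes by the interaction test. Capitals mark CG dinucleotides. Rspo1 is at chr4:124986180-124986429 and Lgr4 at chr2:109917397-109917646, both on the plus strand.
Rspo1: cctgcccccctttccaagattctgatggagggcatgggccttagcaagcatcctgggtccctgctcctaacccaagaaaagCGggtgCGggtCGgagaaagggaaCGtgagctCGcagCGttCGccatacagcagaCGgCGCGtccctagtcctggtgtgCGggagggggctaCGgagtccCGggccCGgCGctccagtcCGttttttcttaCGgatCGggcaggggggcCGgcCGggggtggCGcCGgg
Lgr4: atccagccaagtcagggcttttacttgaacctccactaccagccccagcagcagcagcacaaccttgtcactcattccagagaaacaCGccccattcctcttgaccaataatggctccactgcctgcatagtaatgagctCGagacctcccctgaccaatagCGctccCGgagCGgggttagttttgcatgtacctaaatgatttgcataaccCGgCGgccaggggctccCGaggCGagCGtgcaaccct
The 250 bases of Rspo1 hold 22 CG dinucleotides with a GC content of 66.8%, and those of Lgr4 hold 10 with 55.6%. CTTTG followed by AA, AT, TA or TT, core letters of TCF/LEF binding motifs, was searched on both strands. It occurs in 0 of the 6 member windows of 300 bases and in 16.9% of all 32851 windows. AAGGTCA, the core letters of the SF-1 motif, occurs on either strand in 0 of the 6 and in 4.72% of all. These are letter counts in short windows and say nothing of binding.

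Libraries that stand apart are given first, because they touch some results. Of 8 kidney tubule genes, summed levels were 968 CPM in female control 1 and 159 in female control 3, and at most 2.40 CPM in the remaining 14. Umod, a defining marker, was at 67.5, 16.2 and at most 0.0615 CPM in the same order. Of 7 liver genes, summed levels were 764, 8378, 567 and 181 CPM in male controls, 110 to 162 CPM in female controls and 7.79 to 74.5 CPM in the 8 GOF libraries, so that every control was above every GOF library. All 7 passed as lower in male GOF and 1 of 7 in female GOF. The fits without libraries with kidney or liver transcripts leave out female controls 1 and 3 and male control 2, and keep male controls 1 and 3. Star and Cyp11a1, defining markers of steroid-producing adrenal cells, stood at 4085 CPM or more and 5695 CPM or more in each library.

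In females, 6 of the 8 members with enough counts for a test passed an adjusted p of 0.05 (quasi-likelihood test of edgeR, Benjamini-Hochberg over 18214 genes), 2 higher and 4 lower; over all tested genes 39.6% passed in this comparison, 19.0% higher and 20.6% lower. In males 6 of the 8 passed, 1 higher and 5 lower, against 36.9% of all genes, 15.2% higher and 21.8% lower. A change of at least 1 on the log2 scale together with that p was met by 4 members in females (17.1% of all genes) and 5 in males (18.5%). The groups did not overlap for 6 members in females (37.8% of all genes) and 6 in males (33.1% of all genes). Rspo1, the gene the genotype raises, is among the members counted as passed, as higher, as changed by at least 1 and as not overlapping, in each sex. Its rise was set by the design, and it was the only member called higher in males. Rspo4 had too few counts for a test.

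**Figure D1:**
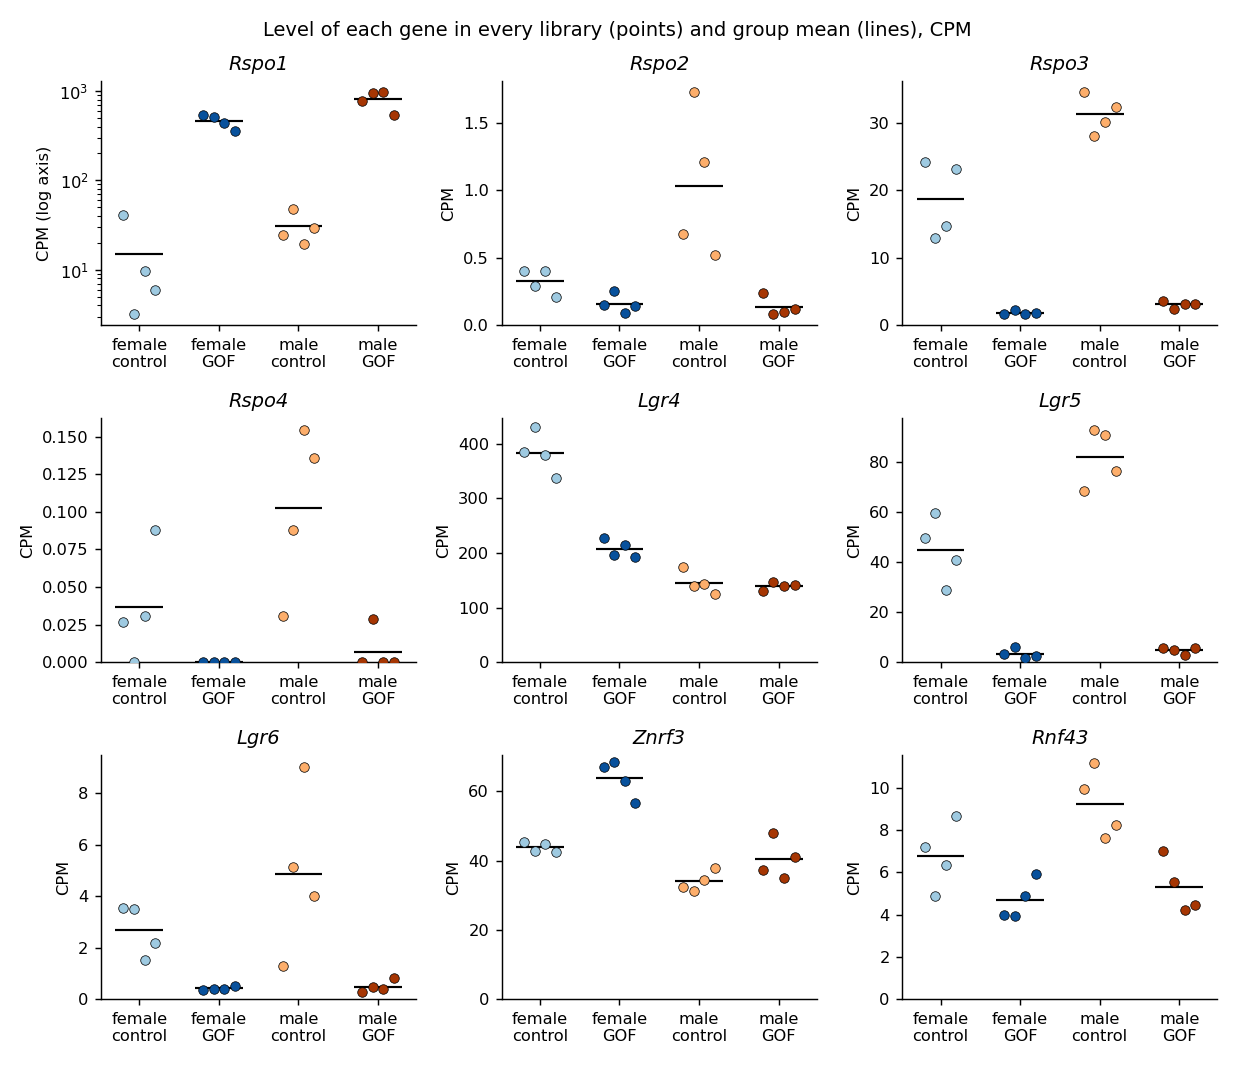
Level of each of the 9 genes in every library (points, CPM) with the group mean (line), in the order female control, female GOF, male control, male GOF; the Rspo1 axis is logarithmic and the others start at 0. Rspo1 was high in the 8 GOF libraries, Rspo3, Lgr5 and Lgr6 were low in them, and Lgr4 was high in the 4 female controls.

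Among the ligands, Rspo1 (ENSMUSG00000028871, chromosome 4, 124986430 to 125009099, plus strand, protein-coding, GRCm38) encodes R-spondin 1 and is the targeted gene. Its 4 female controls read 40.6, 3.20, 9.73 and 5.87 CPM and the 4 female GOF libraries 532, 508, 438 and 354 CPM. Male controls read 24.7, 48.2, 19.4 and 29.6 CPM and male GOF libraries 770, 942, 972 and 535 CPM. The groups of each sex did not overlap, and female control 1 stood above its 3 companions; it is also the library with the most kidney transcripts, whose part in this level was not tested. Rspo1 rose 30.7-fold in females (log2 fold change 4.94 ± 0.658 SE, adjusted p = 6.11e-05) and 26.4-fold in males (4.72 ± 0.649, adjusted p = 6.5e-05). Without female control 1 the female value became 6.19 and the female control mean fell from 14.8 ± 17.4 to 6.26 ± 3.28 CPM (SD, n = 4 and 3). Gene counts do not separate transcripts of the mouse's own Rspo1 locus from any introduced copy.

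Rspo3 (ENSMUSG00000019880, chromosome 10, 29452416 to 29535867, minus strand) encodes the R-spondin known from the adrenal capsule. Female controls read 24.1, 12.9, 14.7 and 23.2 CPM, and female GOF libraries 1.67, 2.22, 1.64 and 1.83 CPM. Male controls read 34.5, 28, 30.2 and 32.4 CPM, and male GOF libraries 3.63, 2.37, 3.21 and 3.17 CPM. Every GOF library was below every control, and within each genotype every male was above every female. Rspo3 fell 10.2-fold in females (log2 fold change -3.34 ± 0.213, adjusted p = 1.73e-07) and 10.1-fold in males (-3.33 ± 0.210, adjusted p = 1.98e-07, same edgeR test). The difference between these changes was 0.01 ± 0.251 on the log2 scale, with an adjusted interaction p of 0.989.

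Rspo2 (ENSMUSG00000051920, chromosome 15, 43020794 to 43170826, minus strand) was near the limit of detection, with 3 to 59 counts per library. It stood at 0.677, 1.73, 1.21 and 0.517 CPM in male controls and 0.239, 0.0857, 0.1 and 0.121 CPM in male GOF. In males it fell 7.37-fold (-2.88 ± 0.467, adjusted p = 0.000223). Female controls read 0.404, 0.291, 0.400 and 0.205 CPM and female GOF 0.146, 0.252, 0.0896 and 0.143 CPM; these ranges overlapped, and the difference of -1.01 ± 0.471 did not pass (adjusted p = 0.104). The difference between the sexes in the GOF change, -1.87 ± 0.666, did not pass either (adjusted p = 0.128).

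Rspo4 (ENSMUSG00000032852, chromosome 2, 151842927 to 151874668, plus strand) had 0 to 5 counts in every library. There were 0 counts in all 4 female GOF libraries, which allows up to 3 counts per library, or 0.0687 to 0.0896 CPM, for counting error only. Female controls had 0 to 3 counts, male controls 1 to 5 and male GOF 0 or 1, so no fold is given.

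Because per-length levels can be added, the FPKM of the 4 ligands were summed. In female controls Rspo1 made up between 29.7% and 74.3% of the R-spondin FPKM and Rspo3 between 25.4% and 69.3%. Female control 1, the library with the most kidney transcripts, gave the 74.3% and the 25.4%; in the other 3 Rspo1 made up at most 53.0% and Rspo3 at least 46.1%. In male controls Rspo1 made up 52.0% to 74.2% and Rspo3 24.8% to 46.6%. Control adrenals of both sexes thus held 2 R-spondin transcripts in amounts of the same order, with Rspo2 at most 1.14% and Rspo4 at most 0.219%. In GOF Rspo1 made up 99.7% to 99.9% of a sum that had itself gone from 8.90 to 46.7 FPKM in female controls to 314 to 471 FPKM, and from 31.9 to 54.4 FPKM in male controls to 498 to 935 FPKM. Without female control 1 the female control sums ended at 16.8 FPKM.

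**Figure D2:**
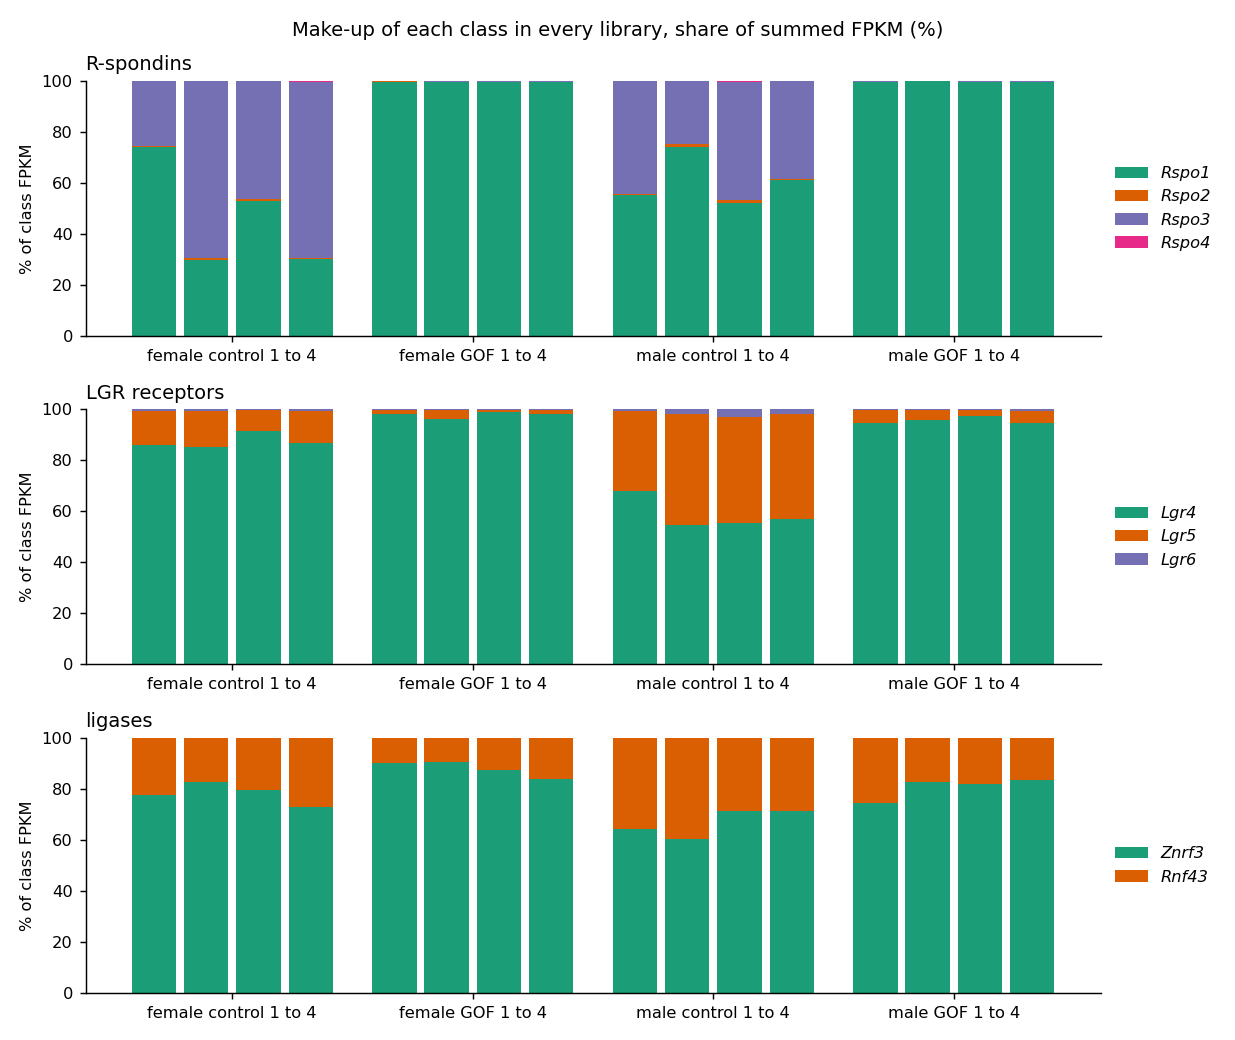
Share of each gene in the summed FPKM of its class (%), one stacked bar per library, for R-spondins, LGR receptors and ligases. Rspo1 is over 99% of R-spondin FPKM in the 8 GOF libraries, and Lgr5 takes 31.6% to 43.4% of LGR FPKM in male controls but 8.21% to 14.0% in female controls and at most 5.07% in GOF.

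Among the receptors, Lgr4 (ENSMUSG00000050199, chromosome 2, 109917647 to 110014257, plus strand) is the broadly expressed member of the family. Female controls read 384, 431, 379 and 338 CPM and female GOF libraries 227, 197, 215 and 192 CPM. Male controls read 175, 139, 143 and 124 CPM and male GOF libraries 131, 147, 139 and 141 CPM. The female groups were apart from each other and from both male groups, while the male groups overlapped. Lgr4 fell 1.84-fold in females (-0.88 ± 0.1, adjusted p = 1.33e-05). In males the fitted difference was -0.06 ± 0.0994 (adjusted p = 0.674), and its sign turned, to 0.012 with upper-quartile scaling and 0.067 on log2(FPKM + 0.1). The difference between the sexes was tested directly: the interaction was 0.82 ± 0.141 with an adjusted p of 0.00524. This was the only 1 of the 8 members called for the interaction, against 4.21% of all tested genes (1.59% higher, 2.61% lower); with a size of at least 1 it was 0 of the 8, against 2.09%. Leaving out any single library kept the call in 16 of 16 fits (adjusted p 0.00148 to 0.0139). Without the 3 libraries that carried kidney or liver transcripts the value was 0.81 and the adjusted p 0.0600, so the call was lost. In female controls 1 and 3, which carried kidney transcripts, Lgr4 stood at 384 and 379 CPM, between the levels of the other female controls.

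Lgr5 (ENSMUSG00000020140, chromosome 10, 115450311 to 115587780, minus strand), a receptor known as a marker of stem cells in the gut and other epithelia, read 49.6, 59.4, 28.6 and 41.0 CPM in female controls and 3.36, 6.11, 1.70 and 2.60 CPM in female GOF. Male controls read 68.2, 92.8, 90.8 and 76.1 CPM and male GOF 5.88, 4.80, 2.88 and 5.83 CPM. Every GOF library was below every control. Lgr5 fell 12.8-fold in females (-3.68 ± 0.354, adjusted p = 4.48e-06) and 16.9-fold in males (-4.08 ± 0.357, adjusted p = 1.45e-06), which were the largest falls among the members. The sexes did not differ in this change beyond its error (-0.40 ± 0.459, adjusted p = 0.663).

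Lgr6 (ENSMUSG00000042793, chromosome 1, 134983301 to 135105276, minus strand), the third receptor, was low, with 11 to 292 counts per library. Female controls read 3.53, 3.52, 1.54 and 2.17 CPM and female GOF 0.380, 0.389, 0.418 and 0.515 CPM. Male controls read 1.29, 5.15, 9.03 and 4.00 CPM, male control 1 being the lowest, and male GOF 0.292, 0.486, 0.401 and 0.816 CPM. The groups of each sex did not overlap. Lgr6 fell 6.28-fold in females (-2.65 ± 0.497, adjusted p = 0.000749) and 9.75-fold in males (-3.29 ± 0.503, adjusted p = 0.000137). In females the call was lost on log2(FPKM + 1) with no filter (-0.65, adjusted p = 0.0513 by limma), a scale that compresses genes below 1 FPKM. It was kept in 11 of 12 other settings, among them the same scale with a filter.

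Summed over the 3 receptors, FPKM went from 134 to 167 in female controls to 69.2 to 81.4 in female GOF, and from 76.8 to 88.5 in male controls to 49.8 to 55.7 in male GOF. Neither pair of ranges overlapped. The fall had a different make-up in each sex. In males mean Lgr5 went from 33.2 to 2.12 FPKM while Lgr4 stood at 49.4 in controls and 51.5 in GOF. In females mean Lgr4 went from 129 to 73.0 FPKM and Lgr5 from 17.9 to 1.45. Lgr4 made up 85.4% to 91.5% of LGR FPKM in female controls, 54.8% to 68.0% in male controls, and 94.7% to 98.9% in the GOF libraries of both sexes.

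Of the ligases, Znrf3 (ENSMUSG00000041961, chromosome 11, 5276324 to 5444847, minus strand) read 45.4, 42.9, 44.9 and 42.4 CPM in female controls and 67.0, 68.5, 63.1 and 56.7 CPM in female GOF. It rose 1.45-fold in females (0.54 ± 0.0946, adjusted p = 0.000442), with no overlap. Male controls read 32.5, 31.2, 34.5 and 37.8 CPM and male GOF 37.5, 48.1, 35.1 and 41.1 CPM, which overlapped. The male difference of 0.25 ± 0.0947 had an adjusted p of 0.0510, just above the threshold. It passed in 7 of 12 other settings (adjusted p 0.0108 to 0.189 over the 12) and in 2 of 16 fits without 1 library. The interaction of -0.29 ± 0.134 did not pass (adjusted p = 0.238).

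Rnf43 (ENSMUSG00000034177, chromosome 11, 87662722 to 87735539, plus strand), the other ligase, had fitted GOF differences of the opposite sign. In neither sex did both ligases pass, and the 2 were not tested against each other. Male controls read 9.94, 11.2, 7.64 and 8.27 CPM and male GOF 7.02, 5.57, 4.21 and 4.44 CPM. It fell 1.74-fold in males (-0.80 ± 0.219, adjusted p = 0.0102) without overlap; without the libraries carrying kidney or liver transcripts the value was -0.70 and the adjusted p 0.0527. Female controls read 7.22, 4.87, 6.34 and 8.69 CPM and female GOF 4.01, 3.96, 4.90 and 5.95 CPM, which overlapped. The female difference of -0.53 ± 0.218 did not pass (adjusted p = 0.0674), and passed in 4 of 12 other settings and in 3 of 16 fits without 1 library. Znrf3 made up 72.8% to 82.8% of the ligase FPKM in female controls and 84.0% to 90.5% in female GOF, and 60.5% to 71.5% in male controls and 74.5% to 83.5% in male GOF. The summed ligase FPKM was 12 to 14.1 in female controls and 16.7 to 18.8 in female GOF; in males the ranges 11.6 to 13.0 and 11.5 to 14.8 overlapped.

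**Figure D3:**
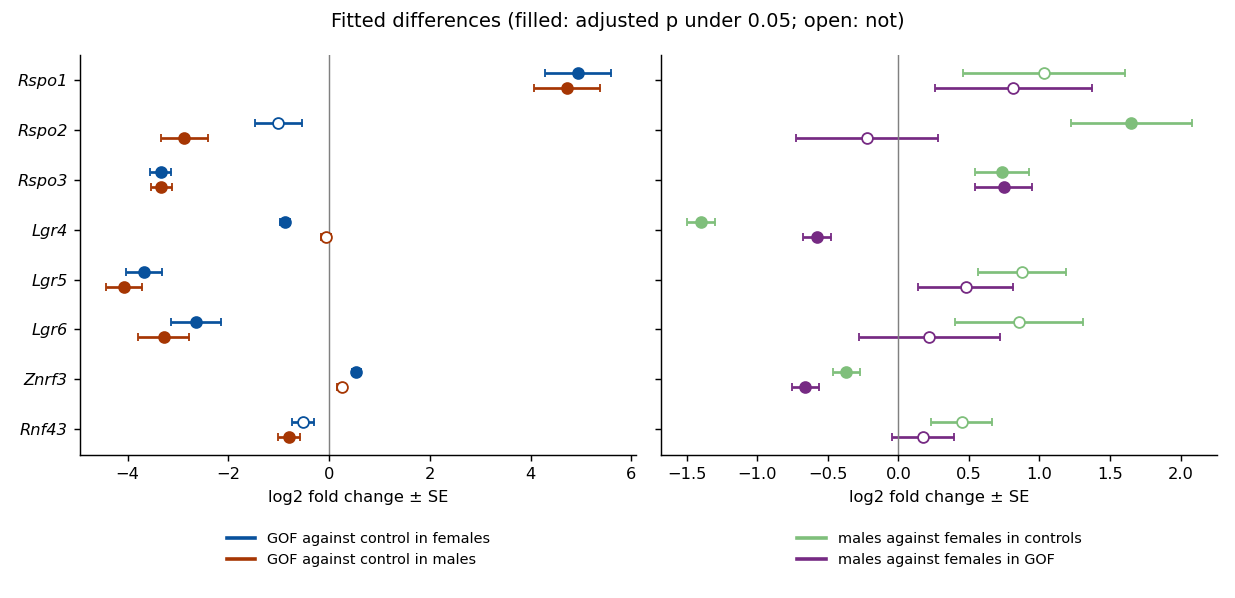
Fitted log2 fold changes with their standard errors for the 8 tested members; left, GOF against control in each sex, right, males against females in each genotype. Filled points passed an adjusted p of 0.05. Lgr4 at -0.88 in females and -0.06 in males is the pair of GOF changes that differed by the interaction test.

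The sexes were then compared within each genotype, to find which members differed before and after the gain of function. In controls 4 of the 8 members passed, 2 higher and 2 lower in males, against 23.4% of all tested genes (13.5% higher, 9.89% lower); 5 did not overlap, against 25.3% of all genes, and 2 passed with a size of at least 1, against 7.71%. Lgr4 was 2.64-fold lower in males (-1.40 ± 0.101, adjusted p = 4.1e-07). Znrf3 was 1.29-fold lower (-0.37 ± 0.0948, adjusted p = 0.0122), Rspo3 1.67-fold higher (0.74 ± 0.191, adjusted p = 0.0127) and Rspo2 3.14-fold higher (1.65 ± 0.431, adjusted p = 0.0131). Lgr5 was 1.84-fold higher without overlap, at 0.88 ± 0.313, and did not pass (adjusted p = 0.0555); it passed in 6 of 12 other settings. Lgr6 and Rnf43 did not pass (adjusted p 0.184 and 0.146).

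Some of these control calls changed when single libraries or settings did. The Rspo1 difference of 1.03 ± 0.573 did not pass (adjusted p = 0.205), but without female control 1 it was 2.28 with an adjusted p of 0.00108, and it passed in 4 of 12 other settings. Lgr6, at 0.184, passed without male control 1 (1.17, adjusted p = 0.0327) and with voom weights (adjusted p = 0.0447). Rspo2 lost its call without male control 2 (1.28, adjusted p = 0.0534). Without the 3 libraries with kidney or liver transcripts Rspo2 lost its call at an unreduced size (1.67, adjusted p = 0.0999), and Znrf3 lost its call at -0.29 (adjusted p = 0.199). The sample titles carry numbers that fall into ranges; with these ranges as covariate, Rspo2, Rspo3 and Znrf3 lost theirs at sizes of 1.69, 0.57 and -0.40 (adjusted p 0.108, 0.237 and 0.0851), and Lgr4 was the only member still called. Nothing in the labels calls them batches. Only the first range holds both sexes, and the other ranges each hold a single sex. Its females are 1 control, female control 1 with the most kidney transcripts, and 1 GOF library. The sex differences with the covariate rest on these females, so they cannot decide whether range explains the control differences. In the main fits, sex cannot be told from range outside the first range.

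In GOF adrenals 3 of the 8 members differed between the sexes, 1 higher and 2 lower in males, against 29.6% of all tested genes (13.3% higher, 16.3% lower); 4 did not overlap, against 29.1% of all genes, and 0 passed with a size of at least 1, against 9.96%. Lgr4 was 1.49-fold lower in males (-0.58 ± 0.0997, adjusted p = 0.000623), Znrf3 1.58-fold lower (-0.66 ± 0.0947, adjusted p = 0.000151) and Rspo3 1.68-fold higher (0.75 ± 0.202, adjusted p = 0.0119). The Rspo3 call was lost in 4 of 12 other settings (adjusted p 0.00338 to 0.342 over the 12). The highest female and lowest male GOF library of Rspo1, 532 and 535 CPM, nearly met, and its difference of 0.81 ± 0.557 did not pass (adjusted p = 0.296). When only the compared groups entered the fit, the Rspo1 difference passed with an adjusted p of 0.0161, and without the libraries with kidney or liver transcripts with 0.0174; with the ranges of title numbers as covariate its sign turned (-0.51, adjusted p = 0.746). The turned sign rests on the 1 female library of each genotype that shared a range with males. The remaining members, Rspo2, Lgr5, Lgr6 and Rnf43, overlapped between the sexes and had adjusted p of 0.309 to 0.775. Without female GOF 2 the Lgr5 difference went from 0.48 to 0.93 and passed (adjusted p = 0.0357).

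By group means, Rspo3, Rspo4, Lgr5, Lgr6 and Rnf43 shared the order male control, female control, male GOF, female GOF. For Rspo3 no neighbours overlapped, and for Lgr5 only the 2 GOF groups did. For Lgr6 only female control and male GOF were apart. For Rspo4, at 0 to 5 counts, all neighbours overlapped, and its male GOF mean came from 1 count. For Lgr4 the order was female control, female GOF and then both male groups, which overlapped. Znrf3 was highest in female GOF, and its other 3 groups overlapped as neighbours. Rnf43 had overlapping neighbours throughout.

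The whole gland was sequenced, so a gene's fall can reflect fewer cells of a type or less RNA per cell, and these cannot be told apart. Markers of adrenal compartments were therefore read beside the members. The 6 capsule markers fell in both sexes, 6 of 6, with median log2 fold changes of -1.50 in females and -1.42 in males, against medians over all tested genes of 0.05 and 0.01. Of 6 zona glomerulosa markers 4 fell in females and 6 in males, with medians of -2.15 and -2.13. The 6 medulla markers, from the catecholamine-producing centre of the gland, fell in both sexes, 6 of 6, with medians of -3.96 and -4.06; their summed level went from between 4637 and 10660 CPM in female controls to between 190.5 and 752 CPM in female GOF, and from between 7444 and 11062 to between 384 and 866 CPM in males. Of 6 genes of the steroidogenic cortex 2 rose and 1 fell in each sex, with medians of -0.13 and 0.03. Of 4 zona fasciculata markers 2 fell in females and 0 in males, with medians of -0.61 and -0.32. Of 5 adipocyte markers 4 fell in females and 5 in males. Of 4 macrophage markers 1 and 2 rose, and the 4 endothelial markers had no call in either sex. Over all tested genes 19.0% were called higher and 20.6% lower in females, and 15.2% and 21.8% in males.

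**Figure D4:**
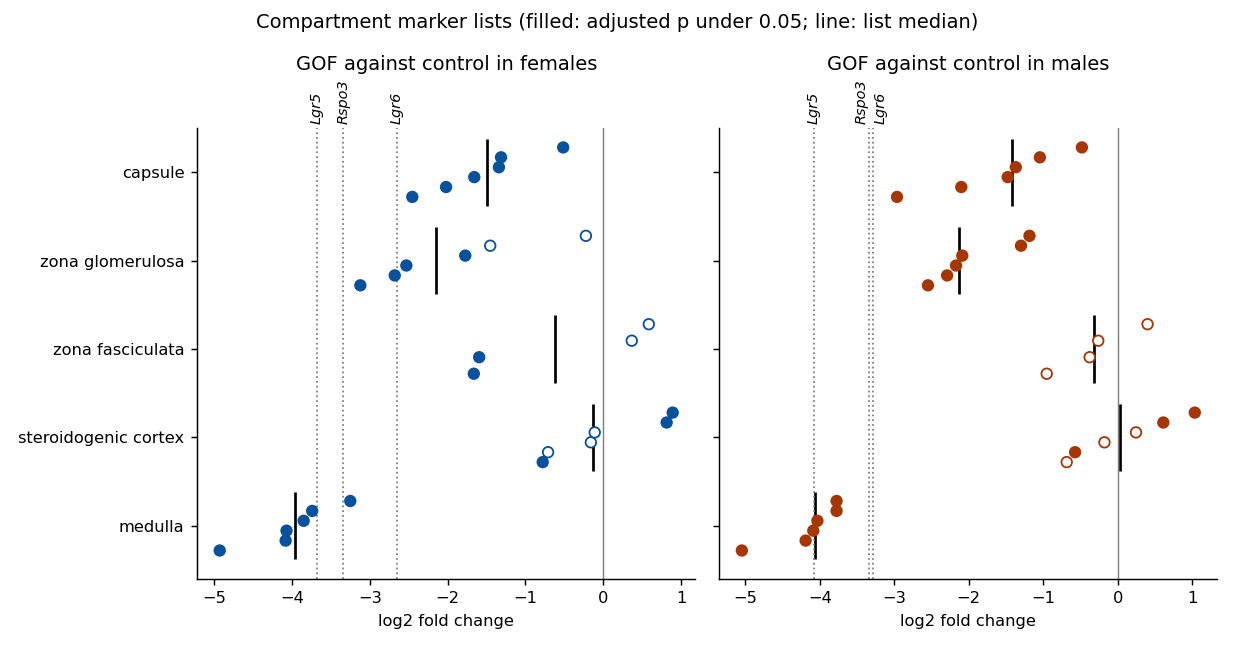
Log2 fold changes, GOF against control, of markers of adrenal compartments in females (left) and males (right), one point per gene, filled where the adjusted p was under 0.05, with the list median as a line; dotted lines give Rspo3, Lgr5 and Lgr6. Lgr5 lies near the medulla median of -3.96 in females and -4.06 in males, and Rspo3 lies below all 6 capsule markers in both sexes.

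Read per 1000 summed CPM of the markers of a compartment, Rspo3, Lgr5 and Lgr6 each had control and GOF ranges that overlapped in both sexes for the medulla. Per medulla sum, Lgr5 stood at 5.24 to 10.7 CPM in female controls and 6.27 to 11 in female GOF, and at 8.39 to 9.16 in male controls and 6.73 to 11.8 in male GOF. Rspo3 stood at 1.21 to 5.21 and 2.95 to 8.62 in females, and at 2.53 to 4.64 and 3.66 to 8.35 in males. Lgr6 stood at 0.282 to 0.761 and 0.518 to 2.2 in females, and at 0.174 to 0.878 and 0.514 to 1.2 in males. Per capsule sum, Rspo3 and Lgr5 were lower in GOF without overlap, so both fell by more than the sum of the 6 capsule markers did. Rspo3 went from between 80.4 and 121 CPM in female controls to between 18.7 and 21.5 in female GOF, and from between 100.3 and 164 to between 20.2 and 27.2 in males. Lgr5 went from between 162 and 369 CPM to between 19.4 and 59.1 in females, and from between 275 and 333 to between 22.7 and 45.8 in males. Lgr6 went from between 8.73 and 21.9 to between 3.76 and 5.99 in females, without overlap, while the male ranges of 6.15 to 33.1 and 2.18 to 6.41 overlapped. The zona glomerulosa sum gave the same split: no overlap for Rspo3 and Lgr5 in both sexes and for Lgr6 in females, and overlap for Lgr6 in males. These ratios were chosen after the levels were seen, describe whole glands, and do not place a gene in a cell type; the part of the compartment markers in the falls was not tested.

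The part of the kidney and liver transcripts in the control means of the members was not tested. The female GOF falls of Rspo3, Lgr4, Lgr5 and Lgr6 and the Znrf3 rise were called in every fit that left out 1 library, and also without the 3 libraries with kidney or liver transcripts. So were the male falls of Rspo2, Rspo3, Lgr5 and Lgr6. Within the ranges of title numbers that hold both genotypes of a sex, the sign of the GOF difference was the same in each range for every tested member except Lgr4 in males, at -0.13 and 0.17. Rspo1 differed by 3.71 on the log2 scale in females of the first range, which holds 1 library of each genotype with female control 1 among them, and by 6.36 in the second.

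The genes on which the module acts come next. Of the 12 Frizzled receptors and LRP co-receptors, all 12 were tested. In females Fzd1 and Fzd3 rose and Fzd2 fell, in males Fzd2, Fzd7 and Fzd9 fell, and the other 9 did not pass in each sex, with list medians of -0.05 and -0.12. These 3 of 12 in each sex stand beside 39.6% of all tested genes in females and 36.9% in males. Fzd1 rose from 41.4 ± 3.38 to 55.7 ± 7.10 CPM in females (0.43, adjusted p = 0.00477). Fzd3 rose from 16.4 ± 0.540 to 22.1 ± 3.91 CPM (0.43, adjusted p = 0.00608), and by 0.26 without female GOF 2 (adjusted p = 0.0335). Fzd2 fell in both sexes, from 16.6 ± 2.07 to 10.8 ± 3 CPM (females) and 19.6 ± 1.79 to 10.9 ± 1.36 CPM (males) (-0.62 and -0.85, adjusted p 0.0124 and 0.00181). Without the libraries with kidney or liver transcripts, Fzd3 and Fzd2 lost their female calls at sizes of 0.40 and -0.60 (adjusted p 0.0670 and 0.0779). Fzd7 fell from 35.5 ± 3.95 to 19.2 ± 2.87 CPM in males (-0.89, adjusted p = 0.000133) and stood at 29.6 ± 3.17 and 26.6 ± 4.47 CPM in females. The co-receptor gene Lrp5 was higher in males of both genotypes: 400 ± 50.2 against 220 ± 18.2 CPM in controls and 439 ± 45.9 against 248 ± 9.40 CPM in GOF (SD, n = 4; adjusted p 2.62e-05 and 3.01e-05). Summed over the 12 genes, levels were 706 to 767 CPM in female controls and 686 to 749 CPM in female GOF, and 865 to 951 and 828 to 908 CPM in males.

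The 12 genes known as WNT feedback targets went both ways. In females 3 rose and 5 fell, against 19.0% of all tested genes higher and 20.6% lower, and in males 3 rose and 7 fell, against 15.2% and 21.8%. The list medians were -0.61 and -0.74. The summed level of the list went the other way in females, from 392 to 480 CPM in controls to 535 to 658 CPM in GOF. In males the sums of 497 to 559 CPM in controls and 502 to 541 CPM in GOF overlapped. A sum gives most weight to the abundant genes, while the median counts each gene alike. The 3 that rose were the same in both sexes: Axin2, a scaffold of the complex that destroys beta-catenin; Tcf7, a transcription factor of the pathway; and Tnfrsf19, a cell surface receptor. Axin2 rose by 0.70 ± 0.108 on the log2 scale in females and 1.01 ± 0.108 in males (adjusted p 0.000162 and 6.07e-06). Tcf7 rose in both sexes, from 36.7 ± 5.04 to 77.2 ± 4.08 CPM (females) and 80.6 ± 14.9 to 112 ± 12.2 CPM (males). Tnfrsf19 rose in both sexes, from 155 ± 11 to 338 ± 41.3 CPM (females) and 102 ± 8.41 to 146 ± 22.3 CPM (males). Tcf7 was named after its values were seen.

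Nkd1, Notum and Lef1 were among those that fell. Nkd1, an intracellular inhibitor, fell in both sexes, from 53.8 ± 11.2 to 24.7 ± 1.26 CPM (females) and 85 ± 8.61 to 33.8 ± 4.84 CPM (males) (-1.12 and -1.33, adjusted p 2.08e-05 and 3.65e-06). Notum, which inactivates WNT proteins, fell in both sexes, from 2.83 ± 1.41 to 1.05 ± 0.179 CPM (females) and 5.19 ± 1.2 to 2.45 ± 0.912 CPM (males) (-1.44 and -1.08). Lef1, a transcription factor of the pathway, fell from 9 ± 0.799 to 4.64 ± 2.35 CPM and from 11.2 ± 0.943 to 5.28 ± 2.31 CPM (-0.95 and -1.09). Notum in males lost its call in 3 of 16 fits without 1 library (adjusted p 0.0119 to 0.0647), and Lef1 in females in 2 (0.00104 to 0.0638); Lef1 in females also lost it without the libraries with kidney or liver transcripts (-1.002, adjusted p = 0.0799), and Notum in males with the ranges of title numbers as covariate. Znrf3 thus went in the direction of Axin2 in females, and Rnf43 in males and Lgr5 in both sexes in that of Nkd1.

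**Figure D5:**
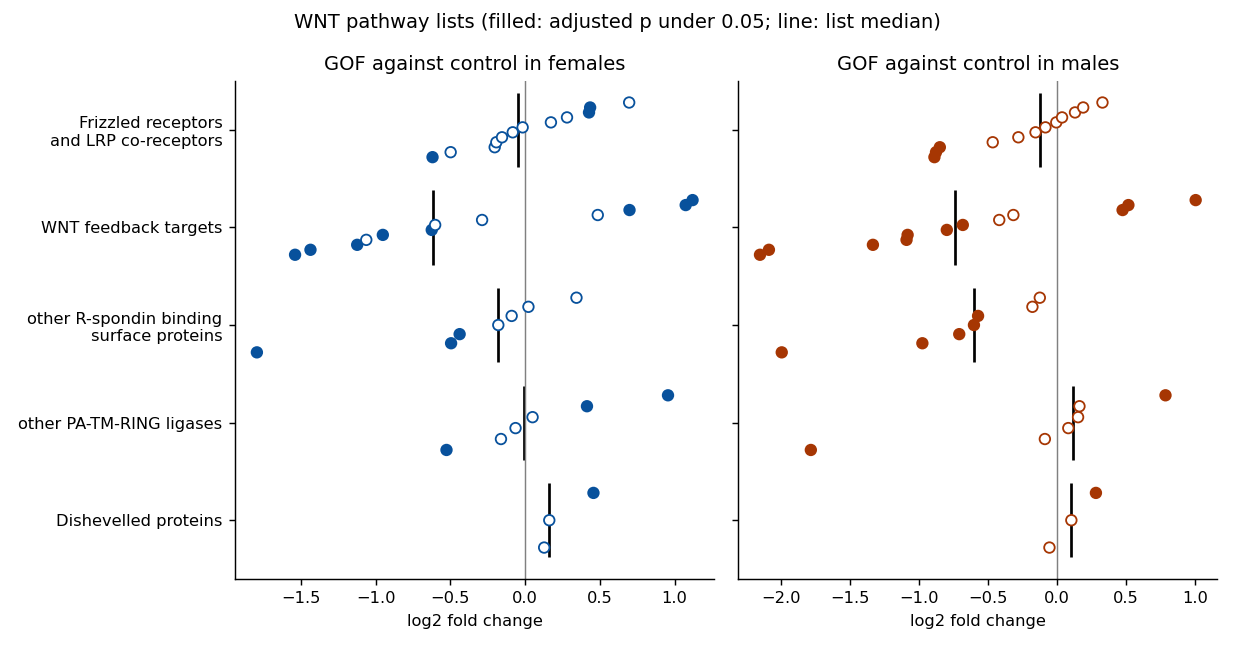
Log2 fold changes, GOF against control, of genes of 5 WNT pathway lists in females (left) and males (right), one point per gene, filled where the adjusted p was under 0.05, with the list median as a line. The WNT feedback targets spread to both sides of 0, with 3 higher and 5 lower in females and 3 higher and 7 lower in males.

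Other R-spondin binding proteins of the cell surface, syndecans, glypicans and a BMP receptor, had 0 of 7 higher in each sex, 3 of 7 lower in females and 5 of 7 lower in males, with medians of -0.18 and -0.60. Over all tested genes 19.0% were higher and 20.6% lower in females, and 15.2% and 21.8% in males. Of 9 other ligases with the same protease-associated, transmembrane and RING architecture as ZNRF3 and RNF43, 6 were tested. There 2 rose and 1 fell in females, and 1 rose and 1 fell in males, too few to set against those shares. Rnf150 fell from 39.8 ± 6.97 to 11.6 ± 3.01 CPM in males and from 29.2 ± 2.07 to 20.3 ± 3.58 CPM in females (-1.78 and -0.53), with an interaction of -1.25 ± 0.247 (adjusted p = 0.0114). Without the libraries with kidney or liver transcripts the interaction lost its call (-1.09, adjusted p = 0.104). The female fall was lost in the same fit (-0.56, adjusted p = 0.0682), on log2(FPKM + 1) with no filter (adjusted p = 0.0739) and in 4 of 16 fits without 1 library: without female control 1 or 4 or female GOF 1 or 2 (adjusted p up to 0.0809). Of the 3 Dishevelled genes, cytoplasmic partners of Frizzled, 1 rose in each sex: Dvl2 in females and Dvl1, named after its values were seen, in males.

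The genes whose pattern over the 16 libraries was most like that of each member were found by the root mean square difference of centred log2 CPM, where 0 means the same pattern. For Lgr4 these were Shb, Tmem135 and Armc8, with differences of 0.152, 0.174 and 0.175. For Lgr5 they were Slc35d3, Disp2 and Nap1l5 (0.206, 0.207 and 0.220), and for Znrf3 Mybbp1a, Ifrd2 and Smarcc1 (0.136, 0.136 and 0.140). For Rspo3 they were Acsm3, Neurod4 and Smpd3 (0.347, 0.378 and 0.392), for Lgr6 Slc24a3, Adcyap1r1 and S100b (0.430, 0.484 and 0.497), and for Rnf43 Bcam, Grina and Tpcn1 (0.220, 0.237 and 0.241). Disp2 went from 89.8 to 6.90 CPM (females) and 155 to 9.03 CPM (males), in step with Lgr5, and Shb from 78.9 to 49.6 CPM in females against 33.1 and 30.7 CPM in males, in step with Lgr4. No gene came close to Rspo1: the nearest, Nkain2, Trank1 and Sema5b, differed by 1.59, 1.61 and 1.62. Rspo2 and Rspo4 averaged below 1 CPM and were not compared.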

How the data were processed

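Per the labels' protocols, RNA was purified on columns, kept where its RIN reached 7.0, made into libraries with a NEBNext Ultra kit and read as 150 bp pairs. The submitters' processing notes name Bowtie2 2.2.3, TopHat2 2.0.12, HTSeq 0.6.1 and DESeq 1.18.0, without role or order; the genome build and strandedness are not given in the sources used here. The deposited counts are whole reads per Ensembl gene, and the second table deposited by the authors holds FPKM, scaled to length and library total. The length implied by both matched GENCODE M21 (GRCm38) within 1% in 96.9% of 18718 genes with at least 20 counts, and 54809 of 54838 identifiers were in it, so symbols and positions come from there. Members did not share exons with another counted gene, except Rspo3 with an antisense gene that had 0 counts.

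Groups came from the labels; replicates are individual mice, numbered in accession order. All 16 libraries entered 1 model with a mean per group, with filterByExpr, TMM factors and edgeR 4.0.16's quasi-likelihood test with robust dispersion, and 12 residual degrees of freedom. Calls are adjusted p values under 0.05 by Benjamini-Hochberg over 18214 genes. The edgeR fit gives no standard error of a log2 fold change. Those printed were derived as its absolute value over the square root of the F statistic of the test. Members are all named, and of the pathway lists Axin2, Nkd1, Notum, Lef1, Frizzled and LRP genes, and any called for the interaction; Tcf7 and Dvl1 were added after their values were seen. The members and lists were chosen with earlier results of these data known. Alternatives used DESeq2 1.42.0, limma 3.58.1 on FPKM or with voom, other factors, filters, sample sets and each library left out. On simulated data, 200 genes among 18214 were changed, in female GOF only. There 58.9% of 2-fold and 81.8% of 4-fold changes were recovered for GOF in females, and 42.9% and 67.0% for the interaction. In the data 39.6% of genes were called for GOF in females and 4.21% for the interaction. The adjusted p depends on the share of changed genes, so these rates need not hold for the data.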

Additional observations from a re-analysis of the deposited data

Results flagged for a closer look

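For 5 of the 48 members and pathway genes tested, against 4.21% of all tested genes, the GOF change differed between the sexes by the interaction test of edgeR, given as male minus female log2 fold change: Lgr4 0.82, Fzd7 -0.73, Tnfrsf19 -0.60, Rnf150 -1.25 and Dvl2 -0.51. Their adjusted p values were 0.00524, 0.0419, 0.0433, 0.0114 and 0.0478. Of 16 fits that left out 1 library, the call was kept in 16 for Lgr4, 16 for Rnf150, 3 for Fzd7, 3 for Tnfrsf19 and 4 for Dvl2. Without the libraries with kidney or liver transcripts all 5 lost it, with values in that order of 0.81, -1.09, -0.76, -0.55 and -0.48 (adjusted p 0.0600, 0.104, 0.181, 0.235 and 0.263). Genes of the pathway lists were named here because they passed this test, so their number is no result about the module.

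In 4 groups of 116 checked, 1 library lay far from its 3 companions: Fzd7 at 41.4 CPM in male controls, Notum at 1.31 CPM in female GOF, Lef1 at 8.72 CPM in male GOF and Rspo4 at 0.0286 CPM in male GOF, which is 1 count. Chance alone flags about 1 in 20 groups.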

How the results depend on the processing

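The members were refitted 1095 times over comparisons and settings: 1022 refits kept the sign and the side of the threshold, 13 lost a call, 34 gained one and 26 changed sign. The count of members called moved by over 1.5 times from 4 for males against females in controls, to 7 with voom weights, 1 with the range of title numbers as covariate and 2 with a log2 threshold of 1; from 3 for males against females in GOF to 0 with that threshold; and from 1 for the interaction to 0 with that threshold and 0 without the libraries with kidney or liver transcripts. Sign changes fell on differences that were not called. With the range covariate, males against females in GOF read -0.51 for Rspo1 and 0.023 for Rspo2. Sex differences in that fit rest on the few females of the first range, the only range with both sexes. The Rspo3 interaction read -0.035 with voom, -0.28 on log2(FPKM + 1) with or without a filter, -0.040 with a pseudocount of 0.1, -0.017 with the range covariate and -0.10 without the libraries with kidney or liver transcripts. Lgr4 in males read 0.012 with upper-quartile factors, 0.066 on log2(FPKM + 1) with or without a filter and 0.067 with a pseudocount of 0.1. Leaving out 1 library gave ranges of -1.47 to 0.11 for the Rspo1, -0.14 to 0.15 for the Rspo3 and -0.60 to 0.065 for the Lgr5 interaction, of -0.63 to 0.12 for Rspo2 and -0.10 to 0.42 for Lgr6 between the sexes in GOF, and of -0.13 to 0.040 for Lgr4 in males. The causes were not tested. Other scaling factors moved the median gene by at most 0.103, for the interaction with upper-quartile factors; log2(FPKM + 0.1), which also changes the measure and the test, moved it by 0.112 in males. No paired analysis was possible because the labels carry no replicate numbers that pair mice across groups. Rspo2 and Rspo4, at 0 to 59 counts, are limited by depth.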
